A study of Mus musculus with 16 samples.

Results

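Matrix metalloproteinases and their inhibitors were described in sorted mouse lung myeloid cells, as 10 named genes of the 19938 measured. The genes were Mmp2, Mmp8, Mmp9, Mmp12, Mmp13, Mmp14 and Mmp19, the inhibitors Timp1 and Timp2, and the related protease gene Adam8. They were chosen by symbol, and each was read by the 1 probe set annotated with that symbol alone. The cells, labelled CD11b+ dendritic cells, had been sorted by CD11b, CD11c and MHC class II, all present, from C57BL/6 mice whose airways had been inoculated with Lewis lung carcinoma (LLC), a transplantable tumour line of the same strain. Of 16 arrays, 8 were titled tumoral, from tumour tissue, and 8 peritumoral, from lung tissue beside the tumour of tumour-bearing mice, so that no array came from a mouse without tumour. Age, sex and pooling were not given, and nothing says which arrays came from separate animals, so p-values measure only how far these samples spread, and that spread may be technical.

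Matrix metalloproteinases (MMPs) are zinc-dependent endopeptidases, made as inactive precursors, that cleave collagens, elastin, basement membrane and many cell-surface or secreted proteins. They are inhibited on binding by the tissue inhibitors of metalloproteinases (TIMPs), and ADAM proteases are membrane-bound relatives that shed proteins from the cell surface. In lung, macrophages and related myeloid cells are well-known sources of MMP12, and neutrophils carry MMP8 and MMP9 in their granules.

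Values were read as log2 expression, and every difference is given as tumoral minus peritumoral. Before the members are described, 3 features of the whole series bear on them. In limma, 0 of 19938 genes had an adjusted p under 0.05, and 2292 had an unadjusted p under 0.05. Peritumoral 4 stood apart, with the highest mean of the fibroblast, endothelium, lung epithelium and neutrophil marker lists of all 16 arrays. Arrays that lie 3 places apart in the deposited order resembled each other across the 2 titles. The arrays at places 3, 6, 9, 12 and 15, which are peritumoral 3 and 6 and tumoral 1, 4 and 7, were the 5 highest arrays for 1668 genes. The labels give no reason for this cycle, and it was noticed after the values were seen. Every difference below takes the titles as deposited, and whether the titles match the samples on the arrays was not tested. If they do not, a tumoral minus peritumoral difference does not compare those tissues.

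No member passed the test between tumoral and peritumoral arrays (limma, adjusted p under 0.05: 0 of 10 members; 0% of all genes). Mmp13 had the smallest p and lay 0.60 higher in tumoral arrays, and it was the only member at an unadjusted p under 0.05, against 11.5% of all genes. Mmp12, Mmp14, Timp2, Mmp19, Adam8 and Timp1 also had positive differences, of 0.33, 0.32, 0.11, 0.10, 0.03 and 0.02. Mmp9, Mmp2 and Mmp8 had negative differences, of -0.76, -0.55 and -0.48. In all, 7 of 10 members lay higher in tumoral arrays, against 41.7% of all genes. All 10 members had a mean above the median gene, and 53.0% of the 9969 such genes lay higher. The count of members was 4 without peritumoral 1, without peritumoral 4, without tumoral 1 or without tumoral 4, and 3 without both peritumoral 4 and 7. For 0 members did the groups not overlap, against 0.0853% of all genes, and 0 members had group means 2-fold or more apart, against 0.206%. The median difference of the members was 0.06, against -0.02 over all genes and 0.011 over the genes above the median level. In whole-cell RNA, fewer cells of a type and less RNA per cell cannot be told apart.

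**Figure D1:**
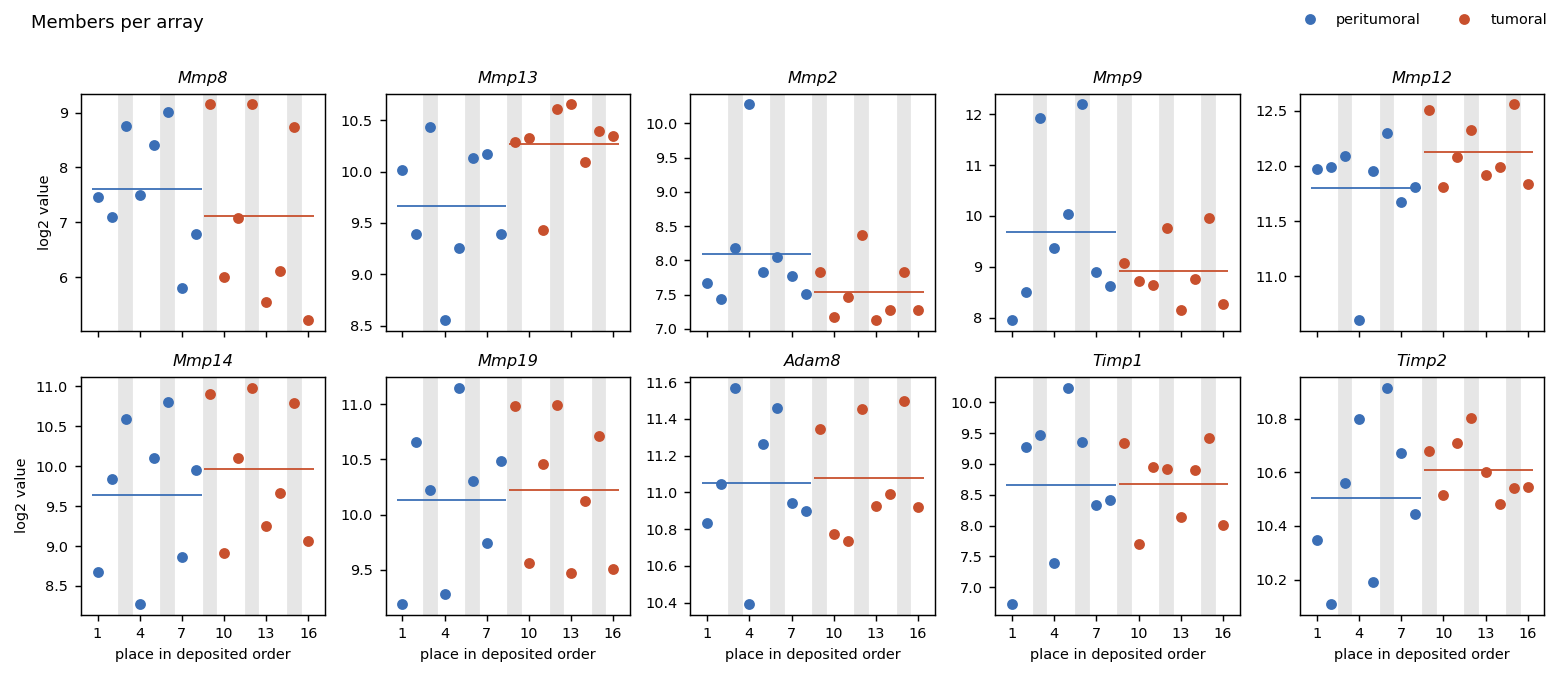
Log2 value of each member on each of the 16 arrays, plotted by place in the deposited order; points are arrays, blue for peritumoral and orange for tumoral, horizontal lines are group means and grey bands mark places 3, 6, 9, 12 and 15. Mmp8, Mmp12, Mmp14 and Adam8 have their 5 highest values in the grey bands, under both titles, and Mmp2 has a single high value of 10.28 at place 4.

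The position in the deposited order described several members more closely than the title did. For Mmp8, Mmp12, Mmp14 and Adam8, 4 of 10 members, the 5 highest arrays were places 3, 6, 9, 12 and 15, against 8.37% of all genes. The share among genes above the median level, where all members lie, was not computed. This order was not particular to the members. It held for 3 of 9 macrophage, 2 of 5 cathepsin, 2 of 11 dendritic cell and 1 of 11 MMP activator or inducer genes. In every other list it held for 0 genes, including 0 of 15 other MMPs. For Mmp14, Mmp19 and Timp1, 3 of 10 members, the 6 lowest arrays were places 1, 4, 7, 10, 13 and 16, against 1.96% of all genes. The first-named 5 places held the 5 lowest arrays for 0 of 10 members, against 3.6% of all genes. These counts describe an order seen in the data and were not tested.

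The upstream sequences of 4 members are shown because 3 of them, Mmp8, Mmp12 and Mmp13, are neighbours in the genome. Mmp8 and Mmp12 had the same 5 highest arrays, which Mmp13 did not share. Mmp14 had the same 5 highest arrays as Mmp8 and Mmp12. Each run is the 250 bases before an annotated start in RefSeq (GRCm38.p6), in lower case, with matches to 2 motifs in capitals: TGANTCA, the element bound by AP-1 (Fos and Jun), and AGGAAG, an ETS-family element known as PEA3, both searched on both strands.
Mmp13, chr9:7272264-7272513, plus strand: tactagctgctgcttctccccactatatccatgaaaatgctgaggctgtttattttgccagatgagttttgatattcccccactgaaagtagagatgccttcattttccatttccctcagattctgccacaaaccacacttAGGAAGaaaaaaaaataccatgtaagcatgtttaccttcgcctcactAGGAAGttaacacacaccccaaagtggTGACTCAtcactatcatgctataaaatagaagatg
Mmp12, chr9:7347124-7347373, plus strand: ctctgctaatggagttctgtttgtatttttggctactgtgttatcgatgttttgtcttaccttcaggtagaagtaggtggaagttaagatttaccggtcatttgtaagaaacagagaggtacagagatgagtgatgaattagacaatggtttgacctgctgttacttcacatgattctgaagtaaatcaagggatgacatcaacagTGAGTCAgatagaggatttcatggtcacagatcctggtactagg
Mmp8, chr9:7558179-7558428, plus strand: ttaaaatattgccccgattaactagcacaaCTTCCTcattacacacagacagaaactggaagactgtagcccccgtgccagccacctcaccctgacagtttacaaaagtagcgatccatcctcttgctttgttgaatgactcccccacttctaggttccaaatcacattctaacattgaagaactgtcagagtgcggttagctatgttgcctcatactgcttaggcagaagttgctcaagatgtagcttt
Mmp14, chr14:54431348-54431597, plus strand: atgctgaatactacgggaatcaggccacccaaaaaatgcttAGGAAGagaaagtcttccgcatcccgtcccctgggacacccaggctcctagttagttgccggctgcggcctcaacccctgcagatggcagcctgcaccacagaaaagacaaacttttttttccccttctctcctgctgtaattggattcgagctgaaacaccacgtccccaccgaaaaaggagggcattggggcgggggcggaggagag

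The AP-1 letters were found in Mmp13, at -35 to -29 from the start (TGACTCA), and in the shown start of Mmp12, at -44 to -38 (TGAGTCA). That was 2 of 7 members with an entry, where 6.75% of 32851 windows of this length held a match. A member was counted if any of its starts held a match, and the 7 members had 8 starts because Mmp12 had another. The share over all windows counts each start singly, so members and windows are unlike units. AGGAAG was found in 5 of 7 members with an entry, against 29.5% of windows: Mmp13 held it at -109 to -104 and at -62 to -57. In Mmp14 it lay at -209 to -204, and in Mmp8 on the opposite strand (CTTCCT) at -220 to -215. Timp1 held AGGAAG too, as did another annotated start of Mmp12, which is not shown and did not hold the AP-1 letters. No match overlapped another. Timp2 and Adam8 held neither run of letters in this window. A match is a description of letters, not evidence that a factor bound there. Mmp2, Mmp9 and Mmp19 had no entry.

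Collagenases cut the triple helix of fibrillar collagen, and Mmp13 and Mmp8 are the 2 members of that class. Mmp13 measured 10.01, 9.39, 10.43, 8.55, 9.26, 10.13, 10.17 and 9.39 in peritumoral 1 to 8. In tumoral 1 to 8 it measured 10.29, 10.33, 9.43, 10.61, 10.65, 10.10, 10.40 and 10.35. All tumoral arrays except tumoral 3 lay above 10, as did 4 of 8 peritumoral arrays, so the groups overlapped. The means were 10.27 ± 0.38 and 9.67 ± 0.63 (SD, n = 8 each), a difference of 0.60 with a 95% confidence interval from 0.11 to 1.10 (limma adjusted p = 0.356). Of the 5 low arrays, peritumoral 2, 5 and 8 and tumoral 3 lie 3 places apart in the order, and the other was peritumoral 4; tumoral 6, at the same place of the cycle as the first 4, measured 10.10. With the place in the 3-array cycle as a block, the difference was 0.51 (limma adjusted p = 0.174), and it was 0.44 without peritumoral 4 and 0.30 with both changes. Among arrays that share a place in the cycle, every tumoral array lay above every peritumoral one except that peritumoral 3 (10.43) lay above tumoral 1 (10.29) and tumoral 7 (10.40).

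Mmp8, the collagenase known from neutrophil granules, spanned 3.93 log2 units over the arrays, from 5.21 to 9.15. Peritumoral 1 to 8 measured 7.46, 7.11, 8.75, 7.50, 8.42, 9.01, 5.80 and 6.79. Tumoral 1 to 8 measured 9.15, 6.00, 7.08, 9.15, 5.55, 6.11, 8.73 and 5.21. Tumoral arrays fell into a high set of 3 (tumoral 1, 4 and 7) and a set at 7.08 or less, and both titles covered most of the range. The means were 7.12 ± 1.66 and 7.60 ± 1.08 (SD, n = 8 each), and the difference of -0.48 had an interval from -1.80 to 0.84 (limma adjusted p = 0.799). Leaving out 1 array moved it from -0.77 without tumoral 1 or tumoral 4 to -0.21 without tumoral 8. With the place block it was -0.73, with an interval from -1.37 to -0.10 (limma adjusted p = 0.196), and without peritumoral 3 and 6 it was -0.056. The block value joins places of the cycle that differed in direction. Among peritumoral 1, 4 and 7 and tumoral 2, 5 and 8 the difference was -1.33. Among peritumoral 2, 5 and 8 and tumoral 3 and 6 the difference was -0.84. For peritumoral 3 and 6 and tumoral 1, 4 and 7 it was 0.13. The 2 arrays with the highest neutrophil means, peritumoral 4 and 5 at 7.92 and 7.68, came next after the 5 highest in Mmp8, at 7.50 and 8.42. The mean of 11 neutrophil genes measured 6.38, 6.20, 6.09, 6.02 and 6.07 in peritumoral 3 and 6 and tumoral 1, 4 and 7. It ran from 6.20 to 7.92 over all peritumoral and from 6.02 to 6.97 over all tumoral arrays. The part of neutrophils in the Mmp8 values was not tested.

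Gelatinases degrade denatured collagen and the type IV collagen of basement membranes. Mmp9, secreted by neutrophils and activated macrophages, had the widest range of any member at 4.24 log2 units. It measured 7.95, 8.50, 11.92, 9.37, 10.04, 12.19, 8.90 and 8.62 in peritumoral 1 to 8, and 9.08, 8.73, 8.65, 9.77, 8.16, 8.77, 9.95 and 8.28 in tumoral 1 to 8. Peritumoral 3 and 6 stood alone above 11, and every other array lay between 7.95 and 10.04. The means were 8.92 ± 0.65 in tumoral and 9.69 ± 1.59 in peritumoral arrays (SD, n = 8 each), a difference of -0.76 with an interval from -1.91 to 0.38 (limma adjusted p = 0.605). Without peritumoral 3 and 6 the difference was 0.026, a setting that keeps tumoral 1, 4 and 7 from the same place of the cycle. Within the cycle the tumoral mean was lower at each place, with differences of -0.35 at places 1, 4, 7, 10, 13 and 16, -0.35 at places 2, 5, 8, 11 and 14, and -2.46 at places 3, 6, 9, 12 and 15. With the place block it was -0.998, from -1.69 to -0.31 (limma adjusted p = 0.127), since tumoral 1, 4 and 7, at the matching places, measured 9.08, 9.77 and 9.95. In peritumoral 3 and 6 the mean of 8 keratin and carcinoma markers measured 7.53 and 7.45, above every array but peritumoral 4 (8.01), and the part of such cells in the Mmp9 values was not tested.

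Mmp2, the gelatinase made chiefly by fibroblasts and other stromal cells, stood highest in peritumoral 4. Its values in peritumoral 1 to 8 were 7.67, 7.44, 8.18, 10.28, 7.83, 8.05, 7.77 and 7.50. Its values in tumoral 1 to 8 were 7.83, 7.18, 7.46, 8.37, 7.12, 7.27, 7.83 and 7.28. Apart from peritumoral 4, no array exceeded 8.37, and the highest of the rest was a tumoral array. The difference of -0.55 (interval -1.23 to 0.13; limma adjusted p = 0.523) became -0.24 without peritumoral 4. The mean of 12 fibroblast markers was also highest in peritumoral 4, at 9.22, and ran from 7.10 to 7.66 in the other peritumoral and from 6.59 to 7.08 in tumoral arrays. Among tumoral arrays it did not run with Mmp2: tumoral 4, 1 and 7, the highest in Mmp2 there, had the 3 lowest fibroblast means of all arrays, at 6.73, 6.85 and 6.59. The part of fibroblasts in the Mmp2 values was not tested.

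Mmp12, the macrophage elastase, which degrades elastin, stood lowest in peritumoral 4, at 10.60, and ran from 11.67 to 12.56 in the other arrays. Peritumoral 1 to 8 measured 11.97, 11.99, 12.09, 10.60, 11.95, 12.30, 11.67 and 11.81. Tumoral 1 to 8 measured 12.51, 11.80, 12.08, 12.33, 11.92, 11.99, 12.56 and 11.84. The 3 highest arrays were tumoral 7, 1 and 4, followed by peritumoral 6 and 3, all at the same place of the 3-array cycle. Peritumoral 4 lay more than 1 log2 unit below the next array. The means were 12.13 ± 0.30 and 11.80 ± 0.52 (SD, n = 8 each), and the difference was 0.33 (interval -0.08 to 0.74; limma adjusted p = 0.523), or 0.16 without peritumoral 4. Macrophage markers were lowest in the same array, with a mean over 9 genes of 10.88 in peritumoral 4 against 11.30 to 11.86 in the other peritumoral and 11.43 to 12.09 in tumoral arrays. Monocyte markers were lowest there too, at a mean of 9.89. The dendritic cell mean was 11.07 in peritumoral 4, next to the lowest of 11.06 in peritumoral 6. The part of any of these cells in the Mmp12 values was not tested.

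Mmp14, the membrane-bound MMP that cleaves collagen at the cell surface and activates the precursor of MMP2, gave the most regular pattern over places. It measured 8.67, 9.83, 10.59, 8.28, 10.10, 10.80, 8.86 and 9.95 in peritumoral 1 to 8. In tumoral 1 to 8 it measured 10.90, 8.91, 10.10, 10.98, 9.26, 9.67, 10.79 and 9.06. The 5 arrays at places 3, 6, 9, 12 and 15 lay at 10.59 or more, those at places 2, 5, 8, 11 and 14 between 9.67 and 10.10, and those at places 1, 4, 7, 10, 13 and 16 at 9.26 or less. The titles overlapped across the whole range, and the difference was 0.32 (interval -0.52 to 1.17; limma adjusted p = 0.786), or 0.13 without peritumoral 4 and -0.031 without peritumoral 4 and 7. With the place block the interval narrowed to 0.00094 to 0.44 around 0.22 (limma adjusted p = 0.259).

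Mmp19, a secreted MMP of basement membrane and other matrix substrates, ranged from 9.19 to 11.15 in peritumoral arrays (median 10.27) and from 9.48 to 10.99 in tumoral arrays (median 10.29). Its 6 lowest arrays were peritumoral 1, 4 and 7 and tumoral 2, 5 and 8, at 9.74 or less, and its highest was peritumoral 5. The difference of 0.10 (interval -0.54 to 0.73; limma adjusted p = 0.932) changed sign when 1 of peritumoral 1, peritumoral 4, tumoral 1 or tumoral 4 was left out, to -0.037, -0.024, -0.011 and -0.012. Adam8, a leukocyte protease that sheds adhesion molecules, ran from 10.39 to 11.57 in peritumoral (median 10.99) and from 10.74 to 11.50 in tumoral arrays (median 10.96). It was highest in peritumoral 3 (11.57) and lowest in peritumoral 4 (10.39), and its difference of 0.03 (interval -0.30 to 0.36; limma adjusted p = 0.964) turned to -0.045 with quantile normalization and to -0.031 with the place block. It also turned to between -0.064 and -0.0015 when 1 of peritumoral 1 or 4 or tumoral 1, 4 or 7 was left out.

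The inhibitors showed no shift between titles that passed the test. Timp1, an inducible inhibitor of most secreted MMPs, measured 6.73, 9.27, 9.48, 7.40, 10.24, 9.36, 8.33 and 8.41 in peritumoral 1 to 8. In tumoral 1 to 8 it measured 9.33, 7.70, 8.96, 8.92, 8.15, 8.90, 9.42 and 8.01. Peritumoral arrays thus held both the lowest and the highest values, and the SD was 1.16 against 0.64. The difference of 0.02 had an interval from -0.87 to 0.91 (limma adjusted p = 0.990), so changes of up to that size in either direction were not resolved, and it ran from -0.25 without peritumoral 1 to 0.25 without peritumoral 5. It was below 0 without any 1 of peritumoral 1, 4, 7 or 8 or tumoral 1, 3, 4, 6 or 7. Timp2, which inhibits MMPs and also joins MMP14 in activating the MMP2 precursor, varied least of all members. It ran from 10.48 to 10.80 in tumoral and from 10.11 to 10.92 in peritumoral arrays, with means of 10.61 ± 0.11 and 10.50 ± 0.28 (SD, n = 8 each). Its interval, from -0.11 to 0.32 around 0.11, was the narrowest of the 10 (limma adjusted p = 0.718). The difference was 0.036 with quantile normalization and ran from 0.049 without peritumoral 2 to 0.16 without peritumoral 6.

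**Figure D2:**
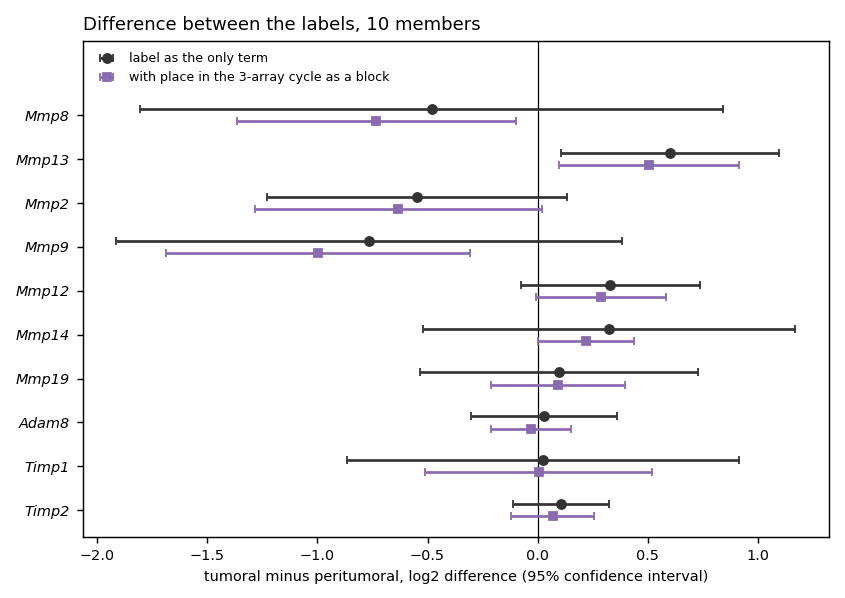
Tumoral minus peritumoral log2 difference of each member with its 95% confidence interval from limma, with the title as the only term (circles) and with the place in the 3-array cycle as a block (squares). Only Mmp13 has an interval above 0 without the block (0.11 to 1.10), whereas the intervals of Mmp8 and Mmp9 reach below 0 alone only with the block (-1.37 to -0.10 and -1.69 to -0.31).

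The spread within titles was wide relative to these differences. Leaving out 1 array gave -0.67 to -0.24 for Mmp2, -1.01 to -0.41 for Mmp9 and 0.16 to 0.40 for Mmp12. It gave 0.44 to 0.72 for Mmp13 and 0.13 to 0.49 for Mmp14, with the lowest value of Mmp12, Mmp13 and Mmp14 and the smallest difference of Mmp2 without peritumoral 4. For 9 of 10 members, all but Mmp8, the SD was larger in peritumoral than in tumoral arrays, against 51.1% of all genes. That count was 4 of 10 without peritumoral 4, against 42.3% of all genes. Peritumoral 4 was the lowest of the 16 arrays for 4 members, Mmp12, Mmp13, Mmp14 and Adam8, and the highest for 1 member, Mmp2, against 3195 genes (16%) and 2992 genes (15%) of all 19938. With the place block, 0 members passed over all genes (0% of all genes) and 4 members, Mmp8, Mmp9, Mmp13 and Mmp14, had an unadjusted p under 0.05 in limma, against 19.1% of all genes.

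Genes with the most similar profile differed from member to member. The likeness is Pearson's r over the same 16 arrays, given as a description without a test, because all values share the arrays and their 3-array cycle. For Mmp14 the nearest genes were Fam20c (0.99), Fnip2 (0.99) and Tmem106a (0.98), and for Mmp8 they were Neu1 (0.96), Fbxo22 (0.95) and Trim13 (0.95). For Mmp12 they were Zfp991 (0.97), Gatm (0.96) and Plau (0.96), the last encoding urokinase, an activator of plasminogen. Timp1 was nearest to Ndrg1 (0.96), Clec4e (0.95) and Uck2 (0.93), and Mmp19 to Ralgds (0.94), Nrg1 (0.94) and Slc7a11 (0.94). Mmp9 was nearest to Slc9b2 (0.94), Fabp7 (0.92) and Sdc1 (0.91), and Adam8 to Pgk1 (0.94), Pi4k2a (0.94) and Mrpl54 (0.94). Mmp13 was nearest to Abcg3 (0.89), Ms4a7 (0.87) and Cx3cr1 (0.86), of which Cx3cr1 encodes the fractalkine receptor. Over the 8 tumoral arrays alone these 3 values were 0.58, 0.40 and 0.59. Mmp2 was nearest to Numb (0.96), Twsg1 (0.96) and Gna11 (0.95), and without peritumoral 4 these were 0.83, 0.94 and 0.79. Timp2 had the least close neighbours, Lima1 (0.85), Ext2 (0.84) and Nfic (0.83).

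Mmp13, Mmp12 and Mmp8 lie in a run of 10 adjacent MMP genes in the GRCm38.p6 annotation, in the order Mmp13, Mmp12, Mmp1b, Mmp3, Mmp1a, Mmp10, Mmp8, Mmp27, Mmp20 and Mmp7. The 3 members varied by 1.96 to 3.93 log2 units over the arrays. The other 7 genes of the run varied by 0.33 to 1.26 units, and their values stayed between 4.22 and 6.58 on every array. The largest of those ranges belonged to Mmp3, stromelysin 1, which lay -0.32 lower in tumoral arrays (limma adjusted p = 0.327), with its highest value of 6.51 in peritumoral 4. All values of these 7 genes lay below the mean of the median gene (7.02), and ranges were not compared with those of genes of like level.

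**Figure D3:**
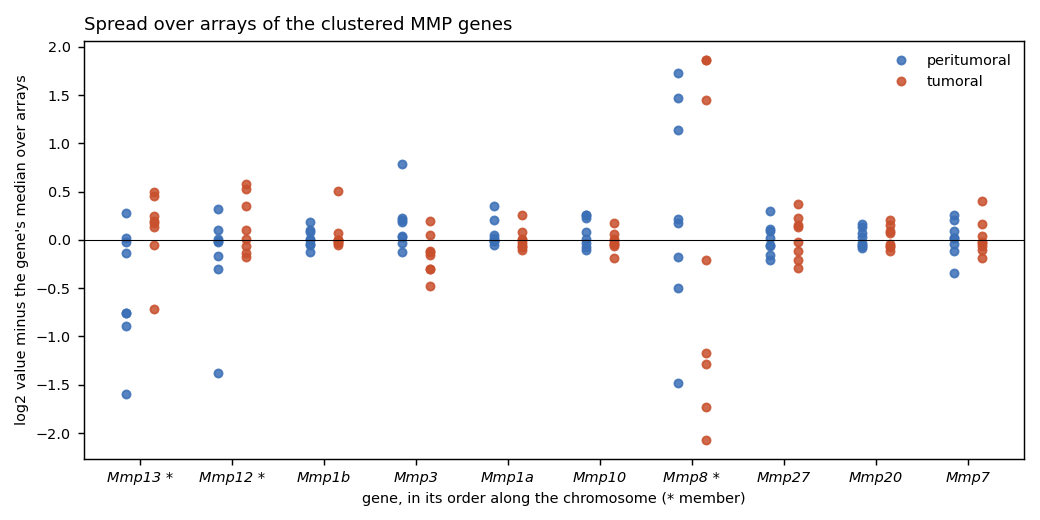
Log2 value minus the median of that gene over the 16 arrays for the 10 adjacent MMP genes, in chromosomal order, with members marked by an asterisk; each point is an array, blue for peritumoral and orange for tumoral. Mmp8 spreads over 3.93 log2 units and Mmp13 and Mmp12 over 2.10 and 1.96, while no other gene of the run spreads over more than 1.26. Levels are not visible here, and those other genes stayed between 4.22 and 6.58 on every array.

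Other genes of matrix turnover did not pass the test either (limma, 0 called in each list). Among 15 other MMPs 7 lay higher and 8 lower, with a median of -0.05, and Mmp11 (-0.24), stromelysin 3, and Mmp3 had the smallest p. Of 4 other MMP inhibitors 3 lay lower. Timp3, the inhibitor that stays bound to matrix, differed by -1.04 (limma adjusted p = 0.456), with 10.90 in peritumoral 4, 8.49 in peritumoral 7 and 7.57 or less in every other array. Reck, a membrane-anchored inhibitor, differed by -0.37 and also peaked in peritumoral 4, at 8.15. Without peritumoral 4 the differences were -0.56 for Timp3 and -0.10 for Reck. Of 13 other ADAM and ADAMTS genes 5 lay higher, with Adamts1 at -0.85 and Adamts4 at -0.21, both aggrecan-cleaving proteases, or -0.55 and -0.13 without peritumoral 4. Endothelium markers were highest in the same 2 peritumoral arrays, with means over 12 genes of 10.69 in peritumoral 4 and 8.55 in peritumoral 7 against 6.74 to 6.92 in tumoral arrays. The fibroblast and lung epithelium means were highest in these arrays too, at 9.22 and 9.83 in peritumoral 4 and 7.66 and 8.39 in peritumoral 7. The part of any of these cells in the values of Timp3, Reck and Adamts1 was not tested.

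Of 11 genes that activate or induce MMPs, 4 lay higher and 7 lower. Bsg, the inducer basigin or EMMPRIN, differed by -0.32, and Plaur, the urokinase receptor, by 0.17 (limma adjusted p = 0.349 and 0.389). Among 5 matrix-degrading cathepsins 3 lay higher, with Ctss at 0.19 (0.12 without peritumoral 4) and Ctsk, the collagen-cleaving cathepsin K, at -0.45. Each of the 11 matrix substrate genes was lower in tumoral arrays, at a median of -0.26 against -0.02 over all genes. Of these, the proteoglycan gene Dcn differed by -2.02 and the fibrillar collagen gene Col3a1 by -0.37 (limma adjusted p = 0.239 and 0.256). The mean of the substrate list was 8.80 in peritumoral 4 and at most 8.34 in the other peritumoral arrays, and its difference moved from -0.47 to -0.37 without peritumoral 4.

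Marker lists describe which cells the arrays may hold, and dendritic cell and macrophage genes both measured high on every array. The mean of 11 dendritic cell genes ran from 11.15 to 11.66 in tumoral and from 11.06 to 11.68 in peritumoral arrays, with 9 of 11 higher in tumoral arrays. Itgax (CD11c) differed by 0.15 and Clec10a by 0.23, or 0.098 and 0.13 without peritumoral 4. Zbtb46, a transcription factor of conventional dendritic cells, measured 7.95 ± 0.47 in tumoral and 7.98 ± 0.42 in peritumoral arrays (SD, n = 8 each), where the median gene had a mean of 7.02. It was the lowest of the 11 listed genes. Flt3 of the same list had means of 9.69 in tumoral and 9.65 in peritumoral arrays, and Cd209a of 12.01 and 12.08. The mean of 9 macrophage genes ran from 11.43 to 12.09 in tumoral and from 10.88 to 11.86 in peritumoral arrays, so the markers did not set the sorted cells apart from macrophages. The dendritic cell list was lowest in peritumoral 6 and 4 and tumoral 4, and macrophage markers were highest in tumoral 4 (12.09), 1 (11.91) and peritumoral 6 (11.86), which are also arrays of high Mmp8 and Mmp14. Of 11 neutrophil genes 10 lay lower in tumoral arrays, with Lcn2 at -1.25 and Ltf at -0.21. Of 9 monocyte genes 6 lay higher, with Ms4a4c at 0.50 and Cd14 at 0.31, and of 9 macrophage genes 8 lay higher, with Cd63 at 0.75 and Mrc1 at 0.20. Of 9 alveolar macrophage genes 8 lay lower, with Krt79 at -0.30 and Car4 at -0.89, or -0.13 and -0.39 without peritumoral 4, where the difference of the list mean went from -0.22 to -0.011. All 12 endothelium genes lay lower (Cdh5 -1.70, Emcn -1.45), as did all 12 fibroblast genes (Dcn, Col3a1), all 12 lung epithelium genes (Hopx -0.57, Ager -0.53) and 7 of 8 keratin and carcinoma genes (Krt8 -0.65, Tead1 -0.52). The list means differed less once peritumoral 4 was left out, and went from -0.87 to -0.45 for endothelium, from -0.64 to -0.40 for fibroblast, from -0.51 to -0.27 for lung epithelium and from -0.43 to -0.27 for neutrophil genes. Cdh5 and Emcn were then at -1.18 and -0.89, Ager at -0.29 and Ltf at -0.14. No gene of these lists passed in limma.

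**Figure D4:**
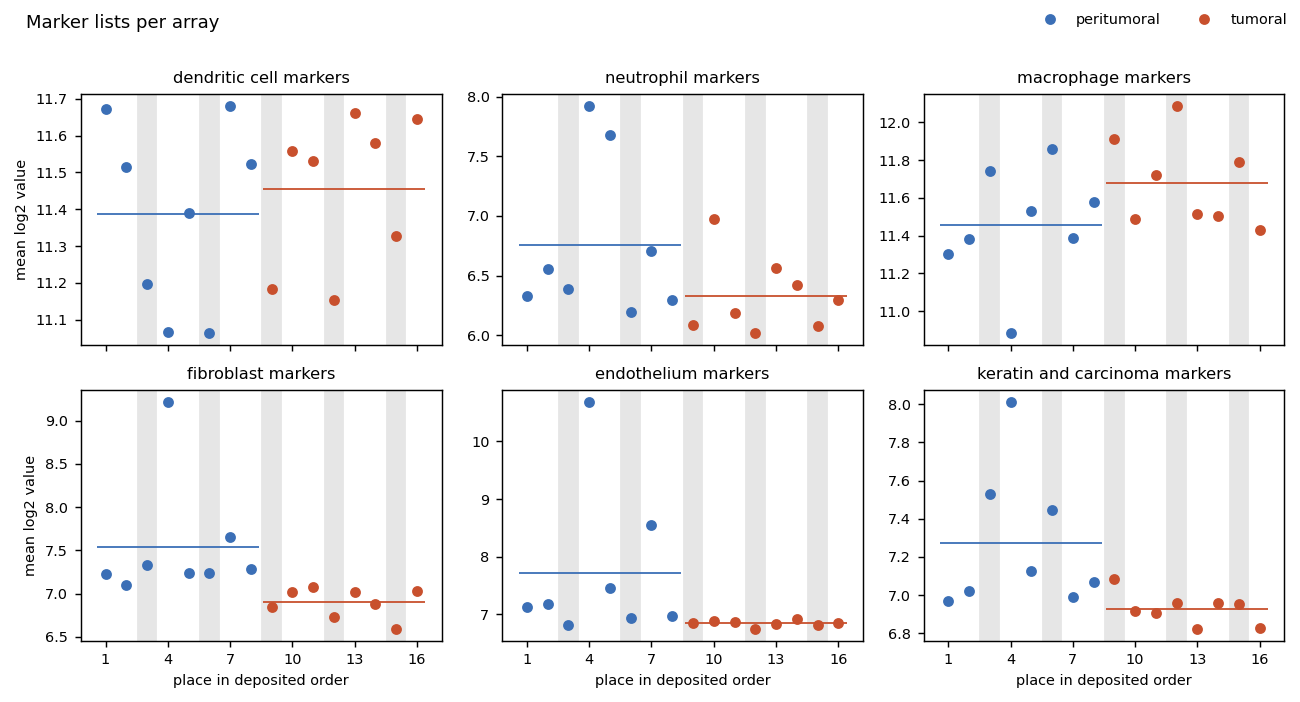
Mean log2 value of 6 marker lists on each array by place in the deposited order; points are arrays, blue for peritumoral and orange for tumoral, lines are group means and grey bands mark places 3, 6, 9, 12 and 15. Fibroblast and endothelium markers peak in peritumoral 4 at 9.22 and 10.69, and the neutrophil list lies between 6.02 and 6.38 at the 5 banded places. Outside the bands, peritumoral 1 and 8 and tumoral 3 and 8 lie in that range of the neutrophil list too.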

How the data were processed

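RNA was amplified and biotin-labelled for an Affymetrix whole-transcript array, per the labels' protocols. The authors deposited 28853 probe sets on 16 arrays as values read as log2 expression. Log base, background correction and normalization were not given in the sources used here; values ran from 2.31 to 14.33 and array medians from 6.75 to 6.95. Arrays give no depth, so their number limits the precision.

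The platform annotation named 1 gene for 21789 probe sets, several for 1621 and none for 5443. The probe set with the highest mean was kept, leaving 19938 genes; all 10 members had 1 probe set. limma 3.58.1 in R 4.3.3 compared 8 tumoral with 8 peritumoral arrays without covariates (14 residual degrees of freedom), with Benjamini-Hochberg adjustment over all genes, a threshold of 0.05 and no filter on dim probe sets; the code was checked on simulated data. All 10 members had a mean above the median gene (7.02).

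Members and lists were chosen with earlier results of these data known. Besides the members, the 2 genes with the smallest p in each list, the adjacent MMP genes and the 3 genes most like each member were named. The 3-array cycle, Zbtb46, Flt3, Cd209a, Vcan and Mmp25 were singled out after their values were seen. Listed genes not tested, for lack of a probe set naming that gene alone, included Mmp15, Adamts2, Klk1, Stfa2l1, Ly6c2 and Ear1. Alternatives are listed in the closing section.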

Additional observations from a re-analysis of the deposited data

Results flagged for a closer look

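Among 20 sets of 8 values (10 members under 2 titles), 3 held a value far from the others of its title, with a gap to the next value of more than the 95% critical share of the whole range (Dixon's criterion); chance alone gives about 1 in 20 such sets. Mmp2 in peritumoral 4 measured 10.28, with the next value at 8.18. Mmp12 in peritumoral 4 measured 10.60, with the next value at 11.67. Mmp13 in tumoral 3 measured 9.43, with the next value at 10.10.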

How the results depend on the processing

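In all 29 alternatives 0 members passed the threshold in limma or in the exact rank-sum test, and the differences of Mmp2, Mmp8, Mmp12, Mmp13 and Timp2 kept their direction. The place block and the omission of peritumoral 3 and 6 were added after the data were seen. Genes called over all genes ranged from 0 to 128 when 1 array was left out (128 without peritumoral 7, 20 without peritumoral 8, 0 otherwise), and were 88 without peritumoral 4 and 7, 8 with the place block without peritumoral 4 and 1263 with the place block without both. Members higher in tumoral arrays ranged from 4 to 7 with 1 array left out (4 without peritumoral 1, peritumoral 4, tumoral 1 or tumoral 4) and were 3 without peritumoral 4 and 7. Leaving out 1 array gave -0.064 to 0.10 for Adam8, -0.037 to 0.24 for Mmp19 and -0.25 to 0.25 for Timp1. Without peritumoral 4 and 7 the differences were -0.10 for Adam8, -0.031 for Mmp14, -0.11 for Mmp19 and -0.24 for Timp1. Without peritumoral 3 and 6 Mmp9 was at 0.026. Adam8 was at -0.045 with quantile normalization, -0.081 with array weights, -0.036 as a difference of medians with the rank-sum test, and -0.031, -0.10 and -0.10 with the place block on all arrays, without peritumoral 4 and without both. Mmp14 was at -0.0061 as a difference of medians, Mmp19 at -0.020 with array weights, and Timp1 at -0.049 with the place block without peritumoral 4. The causes were not tested. Same-numbered arrays did not deviate together (correlations from -0.56 to 0.29 in 8 pairs). They never share a place in the 3-array cycle, so these correlations cannot show whether such arrays were paired. With the replicate block 0 genes and 0 members were called and 7 members lay higher. Centring on array medians put 58.3% of all genes higher in tumoral arrays and left 7 members higher. The mean of all probe sets, trended robust variances and only the 9969 genes above the median level also left 7 members higher and 0 called. The rank-sum test gave 2333 genes an unadjusted p under 0.05 and called 0.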

Other observations

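Ctsk, cathepsin K, was highest in the 2 arrays with the highest Mmp9, at 10.70 in peritumoral 3 and 10.90 in peritumoral 6, and measured 9.36, 9.47 and 9.60 in tumoral 1, 4 and 7. The arrays at places 1, 4, 7, 10, 13 and 16 measured 7.33, 8.22, 7.01, 7.18, 7.19 and 6.81. Vcan, the matrix proteoglycan versican, measured 10.91 in peritumoral 3, 10.56 in peritumoral 5 and 10.27 in peritumoral 6, and at most 9.49 in any tumoral array. The other peritumoral arrays lay between 6.47 and 8.99, inside the tumoral range of 6.19 to 9.49. The difference of -0.90 had an interval from -2.37 to 0.58 (limma adjusted p = 0.640).

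Mmp25, a membrane-anchored MMP of leukocytes, was lowest in peritumoral 3 (8.65), peritumoral 6 (8.89) and peritumoral 4 (9.03), followed by tumoral 4 (9.19) and tumoral 1 (9.27), and was highest in tumoral 6 (10.23). Tumoral 7, at the same place of the cycle as tumoral 1 and 4, measured 9.82.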
